A study of Caenorhabditis elegans with 2 samples.

Results

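The 10 genes examined here carry the epidermal growth factor (EGF), Ras and Notch signals that pattern the vulva of Caenorhabditis elegans. They are lin-3, let-23, sem-5, let-60, lin-45, mek-2, mpk-1, lin-1, lin-31 and lin-12, chosen by name from the WBcel235 annotation, and are 10 of 19973 protein-coding genes. All 10 names had a match. The data are chromatin immunoprecipitation sequencing (ChIP-seq) of LIN-40, an MTA-type protein of the NuRD chromatin complex that is known to act in vulval development. Per the labels, 2 biological replicates, numbered 3 and 4, form the only group. They are whole OP485 hermaphrodites at the young adult stage, 57.25 hours after being synchronized as L1 larvae by bleaching and starvation. The worms stably express LIN-40 fused to GFP-FLAG at its C terminus, and the fusion protein was recovered with an antibody to GFP. The labels name neither the promoter of the transgene nor the cells that express it, and no unfused strain or other condition was analysed here.

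In the third larval stage the anchor cell of the gonad releases LIN-3, an EGF. LIN-3 activates the receptor LET-23 on the vulval precursor cells, and the signal passes through Ras, Raf, MEK and ERK to transcription factors. Cells that receive less of it take a different fate through the Notch receptor LIN-12. The samples were bulk chromatin of whole young adults, a stage after this patterning, so the vulval lineage is a small part of the tissue and no signal can be assigned to it. The same kinases act in other tissues, among them the germline.

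Each gene window ran from 5000 bp upstream of the gene's most upstream annotated start to the gene's end. Regions were assigned to windows by their summit, the point of highest enrichment in the deposited peak list. The authors' irreproducible discovery rate (IDR) list holds 3066 regions, which were the strongest of a pooled list of 30000 regions. Each replicate also has a list of 30000 regions, background included by design. Signal is the value that the authors' caller gave a region. No source used here gives its scale, so it is used to rank and describe regions within a list. Where replicate signals are set side by side, a common scale is assumed and not known, and ranks are given for the main regions. IDR regions had a signal of at least 99.97 and a median of 164. Read depth is unknown, since the lists hold no read counts.

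IDR summits lay in the windows of the adaptor gene sem-5, the Ras gene let-60, the ERK gene mpk-1 and the ETS transcription factor gene lin-1, or 4 of 10 genes. Over all protein-coding genes the share was 20.2% (4038 of 19973). The median member window was 13754 bp and the median over all genes 7027 bp. Among the 8752 genes with windows from the shortest to the longest member window (7271 to 29426 bp) the share was 24.9%. Lengths were not matched within that range. The members' windows held 5 IDR summits, or 3.57 per 100 kb, against 3.37 per 100 kb over the windows of all genes. By density of IDR summits, resting on these 5 alone, the members' windows were therefore close to the windows of all genes. Pooled regions, weaker ones included, were denser in the members' windows, at 4.36 per 10 kb against 2.93 over all genes. No test was made of the count, since the genes were proposed with results of these data known.

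Only sem-5 had an IDR summit in a promoter window, which covers 1000 bp before and 200 bp after each annotated transcript start. That is 1 of 10 members, against 9.91% of all protein-coding genes. The other 4 summits lay in a non-coding RNA gene upstream of let-60 and in introns of mpk-1 and lin-1. mpk-1, with a window of 16346 bp, was the member with 2 IDR summits. Of all genes, whose median window is 7027 bp, 5.39% have 2 or more.

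The sequences at these 5 summits are shown because they are the places in the pathway where the tagged protein was recovered above the IDR threshold. Each is 201 bases of the RefSeq WBcel235 genome, the ce11 assembly, on the plus strand, with the summit at its centre. All 4 genes lie on the minus strand. Capitals mark matches, on either strand, to 5 motifs. These were the GAGAGA repeat, the CTGCGTCT element, the E-box CACGTG, the GATA form TGATAA and the LAG-1 form GTGGGAA. Overlapping matches run together.
sem-5, 605 bp upstream, chrX:7962228-7962428: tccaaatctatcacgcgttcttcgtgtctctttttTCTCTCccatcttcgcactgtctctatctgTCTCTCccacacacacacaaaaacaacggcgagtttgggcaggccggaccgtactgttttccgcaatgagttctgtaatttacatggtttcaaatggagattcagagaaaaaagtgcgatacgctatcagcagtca
let-60, 1360 bp upstream, chrIV:11692348-11692548: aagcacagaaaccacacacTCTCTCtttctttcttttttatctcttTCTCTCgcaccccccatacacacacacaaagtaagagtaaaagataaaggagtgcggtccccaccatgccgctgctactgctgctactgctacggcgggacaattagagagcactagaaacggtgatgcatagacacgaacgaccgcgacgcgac
mpk-1, stronger intronic summit, chrIII:4223688-4223888: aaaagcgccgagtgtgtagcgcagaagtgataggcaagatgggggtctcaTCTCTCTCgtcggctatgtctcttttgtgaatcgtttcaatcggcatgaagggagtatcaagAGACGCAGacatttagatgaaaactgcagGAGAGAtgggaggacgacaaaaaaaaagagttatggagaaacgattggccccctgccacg
mpk-1, weaker intronic summit, chrIII:4223893-4224093: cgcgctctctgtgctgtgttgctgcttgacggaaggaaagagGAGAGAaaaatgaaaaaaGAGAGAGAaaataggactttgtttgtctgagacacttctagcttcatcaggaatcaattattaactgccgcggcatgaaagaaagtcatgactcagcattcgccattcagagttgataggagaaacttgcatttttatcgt
lin-1, intronic summit, chrIV:2281522-2281722: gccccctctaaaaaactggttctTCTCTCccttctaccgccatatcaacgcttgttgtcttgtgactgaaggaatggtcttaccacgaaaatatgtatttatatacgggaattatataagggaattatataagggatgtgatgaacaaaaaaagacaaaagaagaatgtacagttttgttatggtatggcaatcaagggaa

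All 5 sequences held GAGAGA on at least 1 strand, a repeat that GAGA-type factors are known to bind in flies. Both mpk-1 sequences come from overlapping regions, and the motifs were chosen with earlier results of these data known. Over all 3066 IDR summits, 41.3% held it in a window of the same length, and over the 26934 weaker pooled summits 17.8% did. The members' 56 weaker regions held it in 8 cases (14.3%). In sem-5 the matches began 65 and 35 bp to the left of the summit (lower coordinates), and in let-60 81 and 54 bp to the left. In lin-1 a single match began 77 bp to the left. The stronger mpk-1 summit also held CTGCGTCT, beginning 12 bp to the right, which 13.3% of IDR summits hold. None of the 5 held the E-box (10.3% of IDR summits), the GATA form (17.9%) or the form bound by LAG-1, the DNA-binding partner of Notch (2.64%). Absence of these letters from a window of 201 bases says nothing of the factors themselves. The GC content of the 5 windows ran from 36.8% at lin-1 to 49.8% at let-60, against a median of 42.8% over IDR summits.

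**Figure D1:**
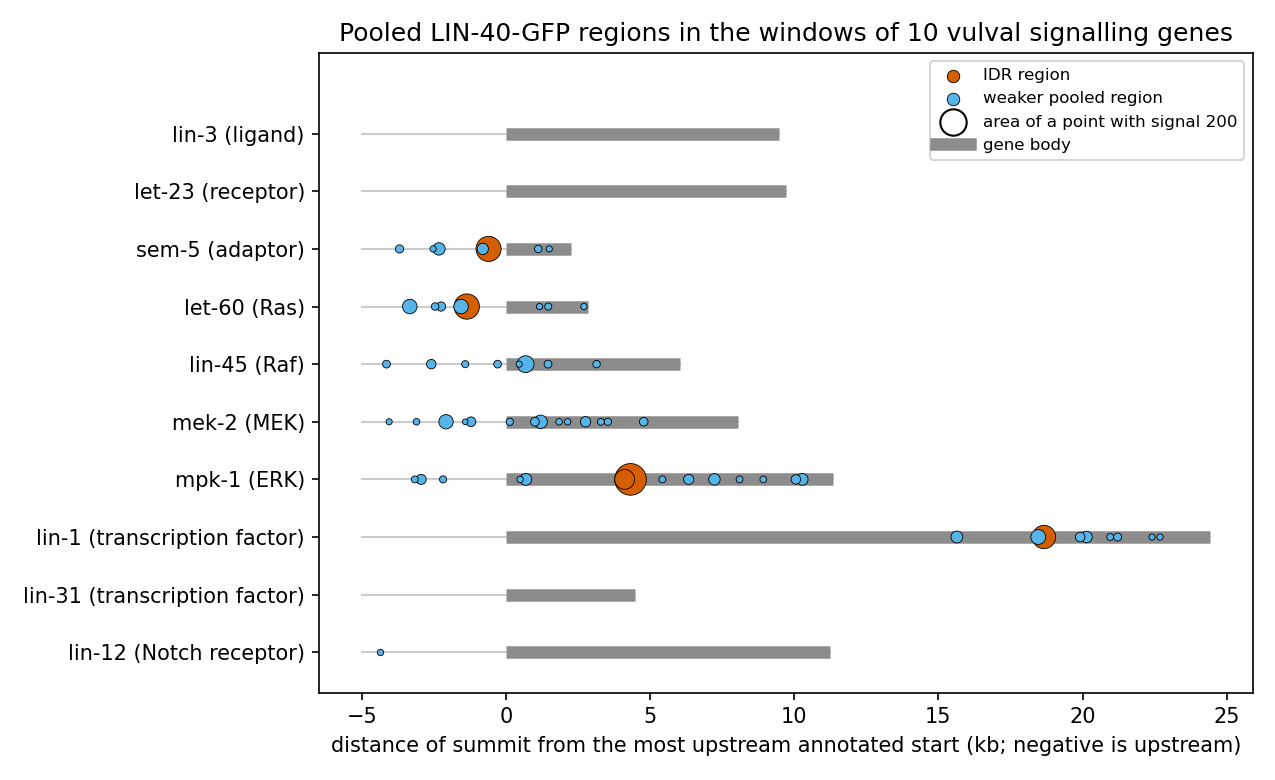
Summits of pooled regions in the 10 gene windows, by distance in kb from the most upstream annotated start (negative is upstream). Point area is proportional to signal, orange points are IDR regions and blue points weaker ones, and grey bars are gene bodies. IDR regions lie in 4 windows, and the windows of lin-3, let-23 and lin-31 hold no point.

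At the head of the pathway, neither the ligand nor the receptor had a region of any strength. The window of lin-3 (IV 11054308 to 11063768, plus strand), which encodes the EGF, held no summit in the pooled list, in replicate 3 or in replicate 4. The gene has 7 distinct annotated starts, and the window covers all of them. The window of let-23 (II 9197512 to 9207213, plus strand), the EGF receptor gene, was equally empty in all 3 lists. A pooled region had to reach a signal of 8.94 to be listed, and the lowest values were 5.67 in replicate 3 and 6.39 in replicate 4, so signal at these genes was not detectable above those limits.

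The adaptor gene sem-5 (X 7959453 to 7961723, minus strand) encodes the GRB2-type protein that links LET-23 to Ras activation. Its IDR region, X 7962135 to 7962433, had a pooled signal of 181 and ranked 1326 of 30000. The nearest replicate summit had a signal of 94.97 in replicate 3 (rank 1155) and 85.4 in replicate 4 (rank 1728). By rank the region stood higher in replicate 3. The summit lay 605 bp upstream of the sem-5 start, in intergenic sequence, and sem-5 had the nearest coding start. The other 6 pooled regions of the window had signals of at most 44.2.

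Ras itself, let-60 (IV 11688227 to 11691088, minus strand), is the switch on which gain and loss of vulval fate turn in mutants. Its IDR region, IV 11692347 to 11692673, had a pooled signal of 184 and ranked 1297. Replicate 3 had 88.0 (rank 1331) and replicate 4 had 93.3 (rank 1518). The summit lay 1360 bp upstream of let-60, inside an exon of the non-coding RNA gene ZK792.10 and 4 bp from its start. By coding starts it was nearest to ZK792.12, at -1345 bp, where negative means upstream. The gene windows of 4 protein-coding genes held it. The next region, with a pooled signal of 60.6, lay at -18 bp from ZK792.7, another gene. The strongest region within 1000 bp of let-60 or inside it had a pooled signal of 14.55, below the pooled median of 24.5. Replicate 4 alone had a summit 377 bp upstream of let-60 with a signal of 21.1 (rank 11237), above that list's median of 16.2.

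The Raf and MEK genes had regions below the IDR threshold. For lin-45 (IV 6742537 to 6748572, minus strand), the Raf gene, the strongest pooled region had a signal of 82.1 and ranked 3923. Its summit lay 9 bp upstream of an internal transcript start of lin-45, that of Y73B6A.5d. The nearest replicate summits had 37.9 in replicate 3 (rank 4437) and 26.2 in replicate 4 (rank 8641). Replicate 4 had a stronger summit, of 51.0 (rank 3672), 813 bp inside the gene, while the pooled summit lay at 680 bp and that of replicate 3 at 586 bp. The IDR list on build ce10 holds 4635 regions, and lin-45 would be among that many of the strongest pooled regions here, as 26.3% of all genes are.

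For mek-2 (I 3005403 to 3013448, minus strand), which encodes the MEK that phosphorylates MPK-1, the strongest pooled region had a signal of 59.2 and ranked 5700. Replicate 3 had 22.2 there and replicate 4 had 38.1. The summit lay 2080 bp upstream of mek-2 and 214 bp upstream of nobh-1, which starts on the other strand. A second region, in an intron 1203 bp inside mek-2, had a pooled signal of 51.5 and 32.0 in replicate 3. Replicate 4 had no summit within 100 bp of it. The nearest summit in replicate 4, 1075 bp inside the gene, had a signal of 17.5 (rank 13773). The window of mek-2 held 14 pooled regions, as many as that of mpk-1, so the number of regions did not follow their strength. Both strongest regions of mek-2, and that of lin-45, had the highest −log10 q-value of the pooled list, which 6816 regions share.

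The ERK gene mpk-1 (III 4216763 to 4228108, minus strand), the last kinase of the cascade, had the strongest region of the 10 genes. The pooled signal was 288, ranking 565, and 5.04% of all protein-coding genes had a region at least as strong in their window. Replicate 3 had 141 (rank 534) and replicate 4 had 150.4 (rank 618). The summit lay in an intron, 4320 bp inside the gene and 4145 bp upstream of the nearest internal start. A second IDR summit 205 bp away had a pooled signal of 114, with 66.7 in replicate 3 and 48.1 in replicate 4. The regions of both summits overlap and start at the same base (III 4223567), so they may not be separate. Replicate 4 alone would not have placed the weaker summit among its own 3066 strongest (rank 3955), while replicate 3 would (rank 2035). mpk-1 was the only coding gene whose window held these summits.

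Of the transcription factor genes, lin-1 had an IDR region and lin-31 had none. LIN-1, an ETS-family repressor of vulval fate, and LIN-31, a forkhead protein, are both phosphorylated by MPK-1. The IDR region of lin-1 (IV 2275861 to 2300286, minus strand) had a pooled signal of 156.5 and ranked 1639, at IV 2281452 to 2281705. Replicate 3 had 71.9 (rank 1802) and replicate 4 had 91.8 (rank 1560). The summit lay in an intron, 18664 bp inside the gene and 2441 bp upstream of the start of the short transcript C37F5.1b. All 9 pooled regions of this window lay in the part of the gene from 15641 bp onward, and none upstream of the gene. The window of lin-31 (II 3982549 to 3987029, plus strand) held no summit in any of the 3 lists.

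The Notch receptor gene lin-12 (III 9060221 to 9071472, minus strand) was near empty. The pooled list had 1 region in its window, with a signal of 11.7 and rank 26389. It lay 4356 bp upstream of lin-12 and 189 bp upstream of F02A9.7. Replicate 3 had no region in the window, and replicate 4 had 2, with signals of 8.01 and 7.85. A pooled region as strong was found for 44.99% of all genes, and 45.6% had any at all.

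**Figure D2:**
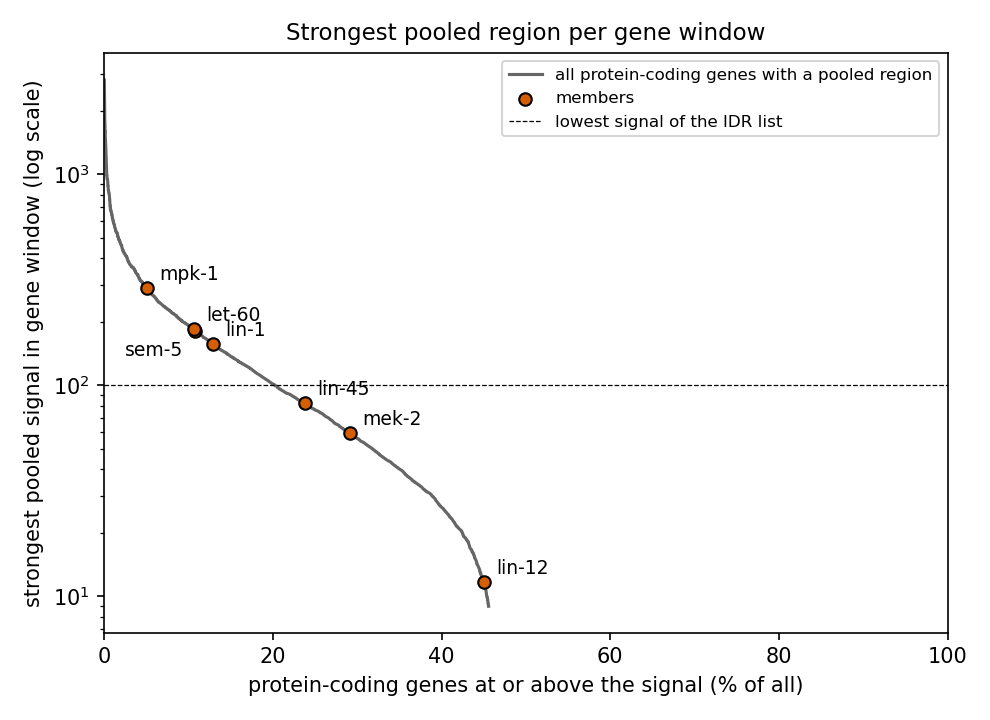
Strongest pooled signal in each gene window (log scale) against the percentage of all protein-coding genes with a signal at least as high. The grey line is all genes with a pooled region, orange points are the 7 members with one, and the dashed line is the lowest signal of the IDR list. mpk-1 stands highest at 288 and lin-12 lowest at 11.7.

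The windows of 6 genes held 7 to 14 pooled regions each, and those of the other 4 held 0 or 1. Pooled regions were found for 7 of 10 members, against 45.6% of all protein-coding genes. The 3 members with no region in any of the 3 lists compare with 47.4% of all genes. Among the 3791 genes with windows of at least 9481 bp, the shortest of these 3 windows, 36.1% had no pooled region. Empty windows are therefore common in these lists. The 7 windows with regions held 61 of them, of which 23 were upstream of the gene and 38 within it. Pooled regions numbered 4.36 per 10 kb of the members' windows, against 2.93 per 10 kb over all genes.

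The genes with 0 or 1 pooled region lay whole in stretches without a pooled summit. Between the pooled summits on either side of the start, the stretch measured 41996 bp at lin-3, 62462 bp at let-23, 39027 bp at lin-31 and 16411 bp at lin-12. These stretches held several whole genes, with 7 protein-coding genes in that of lin-3, 9 in that of let-23 and 8 in that of lin-31. At sem-5, let-60, lin-45, mek-2 and mpk-1 the stretch around the most upstream start was 748 to 2673 bp. At lin-1 it was 23004 bp, although the 3′ part of that gene had regions. Neighbouring pooled summits were a median of 906 bp apart, but the median protein-coding start lay in a stretch of 28609 bp. Of all protein-coding starts, 26.1% lay in a stretch as long as that of let-23, 38.4% as that of lin-3, 41% as that of lin-31 and 63.6% as that of lin-12, which was shorter than that of the median start.

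At the members' IDR summits the replicates were compared by signal, on the assumption of a common scale. The log2 ratio of replicate 4 to replicate 3 was 0.09 and -0.47 at the mpk-1 summits, 0.08 at let-60, -0.15 at sem-5 and 0.35 at lin-1. Over the 2917 IDR regions with a summit within 100 bp in both replicates, the median was 0.20 with an SD of 0.45 across regions. The weaker mpk-1 summit was the farthest of the 5 from that median. Of the members' 61 pooled regions, 23 had a summit within 100 bp in both replicates, 14 in replicate 3 alone, 16 in replicate 4 alone and 8 in neither. The 23 include the 5 IDR regions, so the 56 weaker regions were often not matched in both replicates. The same counts were not made over all pooled regions, so this cannot be called particular to these genes.

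**Figure D3:**
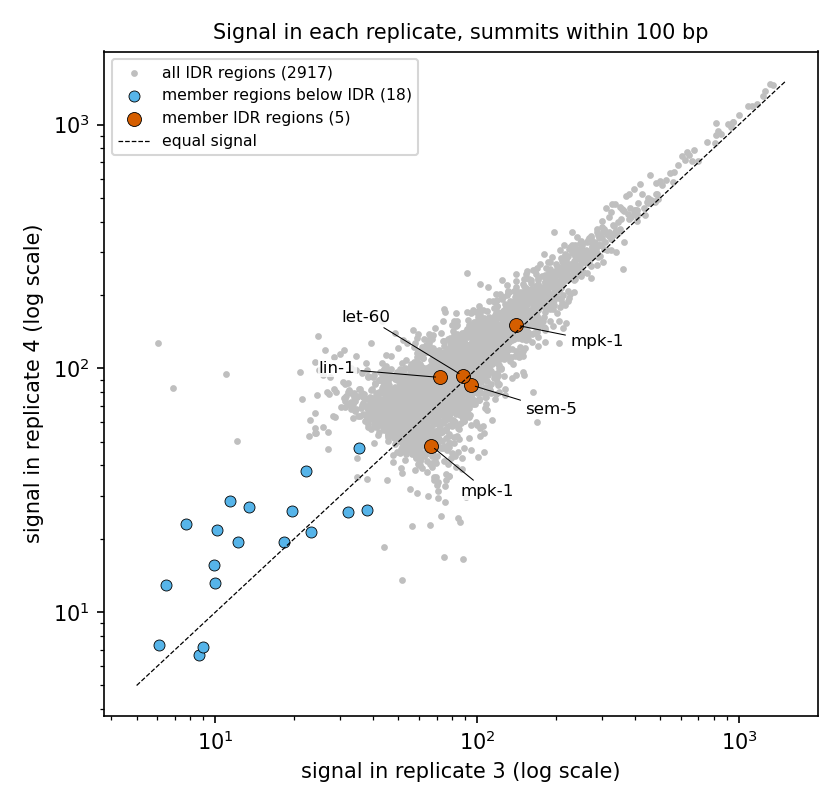
Signal in replicate 4 against signal in replicate 3, both on log scales, at regions with a summit within 100 bp in each. Orange points are the 5 IDR regions of the members, blue points 18 weaker member regions, and grey points all 2917 IDR regions. The orange points lie within the grey cloud, and of these 5 the weaker mpk-1 summit is the farthest below the line of equal signal.

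Other genes of vulval induction were set beside the members in 8 lists, with the same windows. Of 88 names, 85 matched the annotation; mdt-23 is another name of sur-2, and rsk-1 and lst-3 had no match. An IDR summit lay in the window of 25 of 85 (29.4%) and in the promoter window of 10, against 20.2% and 9.91% of all protein-coding genes. Their median window was 10041 bp. The lists were small, and no test was made between them.

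Pooled regions lay in the windows of 65 of the 85 genes, against 45.6% of all protein-coding genes. The windows of all genes are shorter, with a median of 7027 bp against 10041 bp, and lengths were not matched. Among the 3791 genes with windows of at least 9481 bp, 36.1% had no pooled region. By list, pooled regions lay in 7 of 8 windows of receptor localization and adaptors and 9 of 9 of cofactors of the kinases. Inhibitors had 10 of 10, targets and effectors of MPK-1 5 of 6, and Notch ligand, receptor and nuclear complex genes 3 of 7. Notch processing genes had 9 of 13, Wnt genes 14 of 19 and fate regulators 8 of 13. Over all protein-coding genes 20.2% had an IDR summit in the gene window, the share to set beside the count of each list. Among genes of receptor localization and adaptors 2 of 8 had an IDR summit. These were lin-7, a PDZ protein that localizes LET-23 (pooled signal 237; 92.5 in replicate 3 and 145 in replicate 4), and sos-1, the exchange factor of Ras (114; 47.1 and 64.6). The lin-7 summit was closer to the start of elof-1, at -40 bp. Among cofactors of the kinases 4 of 9 had one, led by the scaffold gene cnk-1 (273; 119 and 161), with its summit 276 bp upstream. It was followed by sur-7 (239; 125 and 127), whose intronic summit lay in a tRNA gene, and sur-5 (206; 120 and 94.3). The last was sur-6, the PP2A regulatory subunit gene, at 164, with its summit 52 bp from the start of a non-coding RNA gene.

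Inhibitors of the pathway had an IDR summit in 4 of 10 windows and none in a promoter window. The shares over all protein-coding genes were 20.2% and 9.91%. The Ras GTPase-activating protein gene gap-2 had the highest signal (469; 237 in replicate 3 and 232 in replicate 4). That summit lay 4646 bp upstream of gap-2 and 24 bp from a tRNA start. The ERK phosphatase gene lip-1, a target of LIN-12, had 301 (151 and 152), 3704 bp upstream. The lip-1 summit lay 53 bp from the start of a non-coding RNA gene. lst-4 had 224 (110 and 120), closer to ccar-1, and the Cbl-type gene sli-1 had 199.8. Of the targets and nuclear effectors of MPK-1, 4 of 6 had a summit. They were egl-17 (297; 154 and 137), the fibroblast growth factor gene that marks the primary vulval fate, eor-2 (183; 93.0 and 88.5), the Mediator gene sur-2 (139; 82.4 and 60.2) and eor-1 (102). The sur-2 summit lay 2287 bp upstream of sur-2 and was closer to the start of uev-1, at -153 bp. The egl-17 summit lay 16 bp from a tRNA start, inside an intron.

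Of 7 Notch ligand, receptor and nuclear complex genes, 3 had an IDR summit and 4 had no pooled region. Over all protein-coding genes 20.2% had an IDR summit and 45.6% a pooled region. Among the 3791 genes with windows of at least 9481 bp, 36.1% had no pooled region. The median window of this list was 12458 bp. Whether its share of empty windows is unusual was not tested. The nuclear partner lag-1 had 3 IDR summits, the stronger ones in its introns. Their signals were 233 (94.2 in replicate 3 and 142 in replicate 4) and 209 (95.3 and 113). The third lag-1 summit lay 35 bp upstream of the start of cpi-1. sel-8, the Mastermind-like coactivator, had 2 (144; 65.6 and 75.2, and 138; 59.2 and 79.7), the first closer to mrps-31. The secreted ligand osm-11 had 2, with signals of 103.5 and 101.4; the first had no summit within 100 bp in replicate 3 and 91.1 in replicate 4. The 4 empty windows were those of the ligands lag-2, apx-1 and dsl-1 and of glp-1, the receptor of the germline. Of the processing genes 2 of 13 had an IDR summit, both ADAM protease genes with the summit in their promoter windows. sup-17 had 123 (58.4 and 65.1), inside an exon of a non-coding RNA gene, and adm-4 had 112 (59.3 and 53.3).

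Of 19 Wnt genes 3 had an IDR summit, against 20.2% of all protein-coding genes. The glycogen synthase kinase gene gsk-3 had 663 (329 in replicate 3 and 354 in replicate 4). The beta-catenin gene wrm-1 had 192 (84.7 and 104), and the casein kinase gene kin-19 had 121 (46.9 and 74.5). The gsk-3 summit lay 3266 bp upstream, in the coding sequence of Y18D10A.4. Pooled regions were found for 14 of the 19 Wnt genes, against 45.6% of all protein-coding genes. The Wnt genes had longer windows, with a median of 9621 bp against 7027 bp over all genes. The 5 without one were the ligand genes lin-44, egl-20, cwn-1 and cwn-2, and axl-1. Fate regulators also had 5 genes without a pooled region. Of 13 fate regulators 3 had an IDR summit, fos-1 (527; 258 and 275), ceh-20 (124; 58.3 and 67.1) and unc-62 (117; 62.4 and 60.5). The strongest fos-1 summit lay 3107 bp upstream, 2 bp from the start of a non-coding RNA gene.

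**Figure D4:**
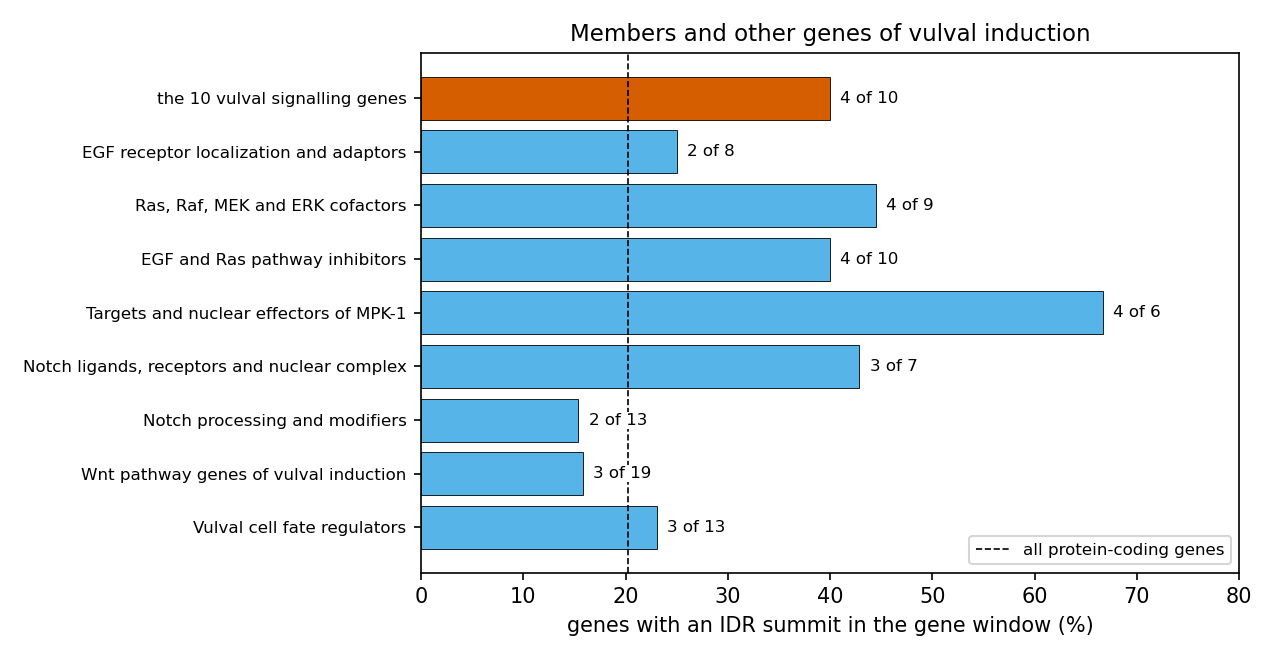
Percentage of genes with an IDR summit in the gene window, for the 10 members (orange) and 8 other lists of vulval induction (blue), with counts beside the bars. The dashed line is the share over all protein-coding genes, 20.2%. The share runs from 15.4% for Notch processing genes to 66.7% for the 6 targets and nuclear effectors of MPK-1.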

How the data were processed

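ChIP-seq regions of both samples were taken from the authors' peak lists on build ce11. Per the deposited file listings, regions were called on each sample alone and on both pooled, with a control alignment, and the IDR list was thresholded. No source used here names the caller, the aligner or the IDR cutoff. Each region's signal and −log10 q-value are the authors' deposited values. The ce10 IDR list gave only its number of regions. Positions were compared with the WBcel235 genome and Ensembl release 115, the assembly of ce11, and no region passed a chromosome's end.

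Summits (start plus offset, counted from 1) were placed in gene windows and promoter windows with Python 3.11.15, pandas 2.3.3 and NumPy 2.4.6, tested on simulated data. A summit in overlapping windows counted for each gene. A replicate's value at a pooled summit is that of its nearest summit within 100 bp. No test was made: there is 1 group, and counts are set beside all 19973 protein-coding genes. The labels call the samples biological replicates and do not say whether they are separate cultures. Members, lists and motifs were chosen with earlier results of these data known. The text names all members, the gene nearest to each of their IDR summits, and every listed gene with an IDR summit, with both replicates for up to 3 per list. Alternatives were other windows, a stricter and a looser list, each replicate's own list, overlap in place of summits, and the nearest start alone.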

Additional observations from a re-analysis of the deposited data

How the results depend on the processing

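The count of members with an IDR summit in the gene window was 4, and 3 to 5 over 8 alternatives. It was 3 without let-60 (window from 1000 bp upstream, 11.7% of all genes; nearest coding start alone, 10.6%), 3 without lin-1 (stronger 50% of IDR peaks, 12.2%) and 5 with lin-45 (as many pooled regions as the ce10 IDR list, 26.3%). It was 4 with the own list of replicate 3 (20.4%) and of replicate 4 (20.1%). It was also 4 with the window from 2000 bp upstream (14.4%) and with any overlap (21.2%). The 5 IDR summits in these windows became 3 with the stronger 50% of peaks and 6 with as many pooled regions as the ce10 IDR list. They were 4 to 5 when each replicate was left out. They were 4 with the window from 1000 bp upstream and with the nearest coding start alone. The count in promoter windows was 1 without replicate 4 (9.98% of all genes) and 1 without replicate 3 (9.9%). It was 0 with the window of 500 and 100 bp (7.81% of all genes), 2 (sem-5 and let-60) with that of 2000 and 200 bp (12.9%), and 2 (sem-5 and lin-45) with the looser list (13.4%). The strongest pooled signal of let-60 was 14.55 with the window from 1000 bp upstream; lin-3, let-23 and lin-31 give no value under any window, nor lin-12 under the shorter ones. No paired analysis was possible because there is 1 group. Depth is unknown, so an empty window limits signal only to the lowest listed values.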
